A study of Mus musculus with 6 samples.

Results

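Genes of ligand-sensing transcription factors and their responses were followed: the nuclear receptors Pparg, Ppard, Rxra, Rxrb, Rara, Nr3c1 and Vdr, the aryl hydrocarbon receptor Ahr, and the response genes Tiparp and Tsc22d3. They were chosen by name, with earlier results of these data known. Of the 10 genes, 9 had a row among the 26096 genes of the deposited expression table, and 8 reached the minimum level for testing. Pparg was not analysed here.

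RNA was sequenced from wild-type (WT) mouse microglia, the macrophages that reside in the brain, after they were given medium in which bone marrow-derived macrophages (BMDMs) had been kept. In the 3 samples called control here the macrophages were normal, and in the 3 samples called ferroptotic medium they were dying by ferroptosis, a cell death that runs on iron and oxidised membrane lipids. All 6 samples shared the WT genotype, while where the microglia came from, what set off ferroptosis and how long the exposure lasted were not stated in the labels. The labels do not tell whether the samples of a group were separate cultures, so the p-values measure the spread between these samples only, which may be technical.

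Nuclear receptors are transcription factors that a small fat-soluble molecule switches on. RXR proteins pair with PPAR, RAR and VDR proteins on DNA and so take part in the response to fatty acids, retinoic acid and vitamin D, while the glucocorticoid receptor, encoded by Nr3c1, waits in the cytosol with chaperones until a steroid binds. AHR is a receptor of another family that is held by the same kind of chaperones, binds planar aromatic compounds and pairs with ARNT in the nucleus. In microglia and macrophages these receptors are known for their effects on lipid handling and for restraining inflammatory genes.

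The libraries held between 39624311 and 50557794 reads assigned to genes. Values below are normalized counts, meaning reads divided by a factor for each library's size, and the log2 fold changes are differences of the mean log2(normalized count + 1), ferroptotic minus control medium, with limma's standard error (SE). A gene was called when its limma p-value, adjusted by the Benjamini-Hochberg method over 15597 genes that reached 10 normalized counts in 3 or more libraries, was below 0.05. Of these genes 6629 (42.5%) were called, 3077 (19.7%) higher and 3552 (22.8%) lower with ferroptotic medium. The labelled cell type was checked against marker genes: Csf1r, shared with other macrophages, was abundant, whereas over all 6 libraries P2ry12 had 3 reads, Fcrls 5, Gpr34 5 and Tmem119 21, so the markers that set microglia apart were at or near 0. The 8 microglia markers in the table, 2 of which were called lower, summed to between 77809 and 81146 normalized counts with control medium and to between 60684 and 62300 with ferroptotic medium, nearly all of it Csf1r. The summed normalized counts of 7 general macrophage markers ran from 287509 to 301764 in the control libraries and from 313402 to 319880 in the others, with 4 called higher and 1 lower. For oligodendrocyte genes, mostly Mbp, the sum ran from 6824 to 7335 and from 4277 to 4487, with 2 genes called lower and 1 higher. For neuron genes, mostly Tubb3, it ran from 5.88 to 16.6 and from 55.3 to 69.6, and for fibroblast genes, mostly Dcn, from 8.81 to 11.8 and from 28.7 to 63.1. For astrocyte genes it ran from 880 to 977 and from 1152 to 1214, but only Gja1 rose (log2 fold change 0.49), while Aldh1l1 fell (-0.64) and Gfap did not pass the test (-0.02). Their part in the results below was not tested, and in bulk samples such as these fewer cells of a type and less RNA per cell cannot be told apart.

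Of the 8 tested members 2 were called (25%, beside 42.5% of all tested genes): Tsc22d3, the glucocorticoid-induced leucine zipper gene, rose 2.34-fold, and Rara, the gene of retinoic acid receptor alpha, fell to 0.82 of its control level. The other 6 did not pass the test. In 3 members, Tsc22d3, Rara and Rxra, the 3 control libraries and the 3 ferroptotic-medium libraries did not overlap, a share of 37.5% beside 53.7% of all tested genes. Rxra reached the minimum for testing only because its ferroptotic-medium libraries were high enough, so its place in this share is no support. The median log2 fold change of the tested members was 0.26, and that of all tested genes was -0.005.

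**Figure D1:**
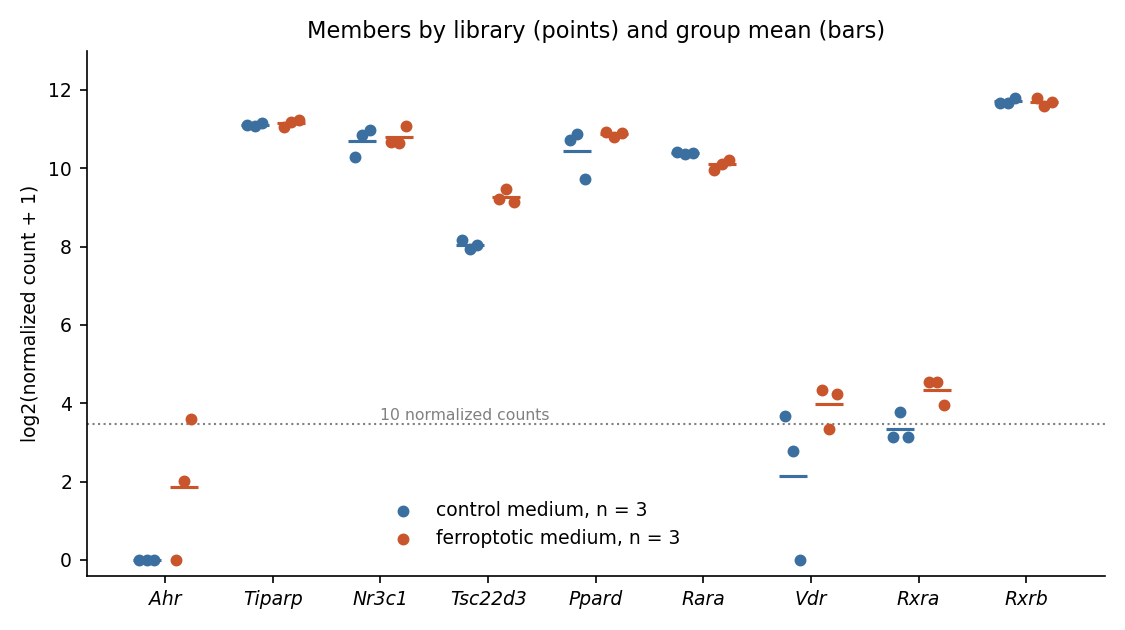
Level of each of the 9 measured members in every library, as log2(normalized count + 1), with points for libraries and bars for group means (3 control and 3 ferroptotic-medium libraries); the dotted line marks 10 normalized counts. Tsc22d3 lies higher and Rara lower with ferroptotic medium without overlap, whereas the Rxra libraries lie near the dotted line, Vdr has 1 control library at 0, and Ahr has 4 of 6 libraries at 0.

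**Figure D2:**
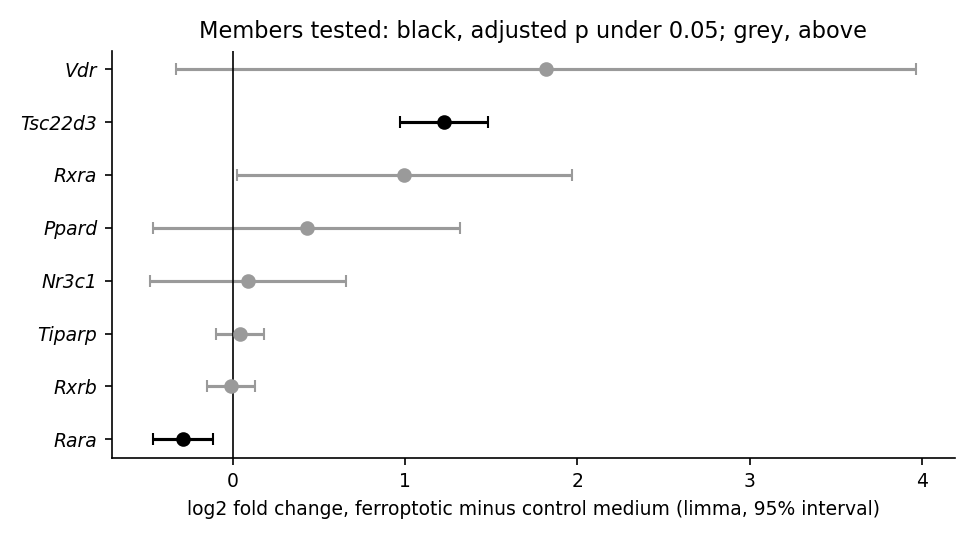
Log2 fold change of the 8 tested members, ferroptotic minus control medium, with limma's 95% interval (black, adjusted p below 0.05; grey, above). The intervals of Rxrb and Tiparp are narrow around 0, and those of Vdr, Rxra and Ppard are wide.

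The sequences before the start sites of the 2 called members are shown as a place where these receptors could bind. Upstream windows of 250 bases (RefSeq, build GRCm38.p6) were read for 7 of the members, 14 windows in all, since a gene can have several start sites. Each window was searched on both strands for GCGTG, the core that AHR and ARNT recognise, AGGTCA, the repeat unit of sites for RXR partners, TGTTCT, a glucocorticoid receptor element unit, and AGAACA followed by TGTTCT 3 bases later. Capitals mark a match, sequences run 5′ to 3′ in the direction of the gene, and a match is letters only and no evidence of binding. Sequence outside the 250 bases was not searched, so a window without a match does not show that the gene lacks such a site. One of the 4 Rara windows, chr11:98937446-98937695 on the plus strand, holds GCGTG 240 to 236 bases before the start, and the other 3 hold no match. Of the 3 Tsc22d3 windows, chrX:140548572-140548821 and chrX:140542669-140542918 on the minus strand hold no match, and chrX:140600523-140600772 holds TGTTCT. The Rara window with GCGTG and the Tsc22d3 window chrX:140548572-140548821 are printed in full below. Neither of these holds an annotated exon base.

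Rara: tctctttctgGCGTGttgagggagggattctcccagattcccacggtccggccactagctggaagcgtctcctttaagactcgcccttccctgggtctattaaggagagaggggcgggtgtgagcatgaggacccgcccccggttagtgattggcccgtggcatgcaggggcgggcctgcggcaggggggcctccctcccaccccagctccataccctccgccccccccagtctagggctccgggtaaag
Tsc22d3: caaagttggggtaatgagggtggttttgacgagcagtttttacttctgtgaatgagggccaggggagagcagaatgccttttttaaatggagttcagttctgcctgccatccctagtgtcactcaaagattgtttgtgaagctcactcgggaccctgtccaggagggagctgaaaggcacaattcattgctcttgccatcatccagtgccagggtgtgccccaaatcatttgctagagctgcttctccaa

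The remaining matches are shown as short stretches around the motif, to set the members beside each other. GCGTG stood in 6 of the 14 windows (42.9%), against 28.2% of all 32851 windows in the same RefSeq table, and these 6 belong to 5 of the 7 members: Rara, Tiparp, Vdr, Ppard and Rxrb. AGGTCA stood only in an Rxra window, once on each strand (14.0% of all windows), and TGTTCT only in another Tsc22d3 window (16.1%). The AGAACA and TGTTCT pair stood in none of the 14 windows and in 3 of all windows (0.00913%). Written in capitals as CACGC or TGACCT, a motif lies on the opposite strand.

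Tiparp, chr3:65528265-65528293, plus strand: ctccgtccggagCACGCgcacgggaggcg
Vdr, chr15:97908359-97908387, minus strand: tgaacttagtggGCGTGgttgaggggcag
Ppard, chr17:28232733-28232753, plus strand: ccggggctgggaGCGTGtgac
Rxrb, chr17:34031582-34031610, plus strand: ggacgtggcactCACGCctcgagctcccg
Rxrb, chr17:34032284-34032312, plus strand: cttgtttgtaaaCACGCgccctcgacgtc
Rxra, chr2:27709232-27709261, plus strand: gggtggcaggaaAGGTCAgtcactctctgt
Rxra, chr2:27709193-27709222, plus strand: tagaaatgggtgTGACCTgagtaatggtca
Tsc22d3, chrX:140600690-140600719, minus strand: ccgcattcgacaTGTTCTaagttctgagac

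Of the 5 members with GCGTG in a window, Rara fell, and Tiparp, Vdr, Ppard and Rxrb did not pass the test.

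Compared per kilobase of exon, Rxrb was the most abundant member. In control medium it stood at 841 ± 39.7 normalized counts per kilobase (SD, n = 3), followed by Tiparp at 509 ± 15.5 and Rara at 306 ± 4.11. Nr3c1 at 221 ± 51.8 and Ppard at 196 ± 73.7 came next, and their libraries overlapped, so their order was not separated. Tsc22d3 was lower at 61.0 ± 4.47, and Rxra at 1.73 ± 0.505, Vdr at 1.04 ± 1.04 and Ahr at 0 formed the bottom of the order. With ferroptotic medium Rxrb stood at 836 ± 57.7 and Tiparp at 525 ± 35.8. Rara at 252 ± 22.7, Ppard at 249 ± 11.0 and Nr3c1 at 233 ± 40.3 overlapped there, and Tsc22d3 reached 143 ± 16.9. The AHR partner Arnt, which is not a member, stood at 404 ± 3.02 in control medium on the same scale, next to a receptor with no read in those libraries.

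Ahr (ENSMUSG00000019256), the receptor itself, was barely detected. Control libraries had 0, 0 and 0 Ahr reads, and ferroptotic-medium libraries had 0, 3 and 10, so reads were seen in 2 of the 3 libraries of one group and in none of the other. The control total of 0 allows up to 0.0218 CPM (3 counts of 137806457 reads), and the 13 reads with ferroptotic medium correspond to 0.107 CPM (exact 95% interval 0.0568 to 0.182), both limits covering counting error only. An exact two-sided permutation test over the 6 libraries gave p = 0.4, and without ties the smallest value this design allows is 0.1. Since all reads lay in one group and the other libraries were tied at 0, these values could not give less than 0.4. The test therefore cannot decide whether the groups differ. The gene was below the minimum for testing, and with no minimum its limma adjusted p was 0.175. In the authors' deposited table Ahr had a p-value of 0.0369 and a false discovery rate of 0.119. Ahr is nevertheless in the authors' shorter table of genes named significant, where Tsc22d3 is the only other member. The counting limits of the groups did not overlap, but the ferroptotic-medium libraries differed among themselves from 0 to 10 reads, and the permutation test could not have passed 0.05 with 3 libraries a group.

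Tiparp (ENSMUSG00000034640), a poly(ADP-ribose) polymerase family gene that AHR switches on and whose product restrains AHR, was well expressed in both media. Control medium gave 2215, 2152 and 2287 normalized counts, and ferroptotic medium 2113, 2334 and 2414. The groups overlapped, with both the lowest and the highest value in the ferroptotic-medium group. Its log2 fold change was 0.04 (SE 0.06, 95% interval -0.10 to 0.18, limma adjusted p = 0.622). Of its exon bases 5.12% also lie in the antisense gene 4931440P22Rik, and the sources used here do not say whether reads were counted by strand.

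Among 11 listed AHR partners, regulators and targets, 8 had a row in the table and 6 were tested. Of the 6, 1 was called higher and 1 lower (16.7% each, beside 19.7% and 22.8% of all tested genes). Arnt, the gene of the nuclear partner of AHR, rose from 3236 ± 24.2 to 3901 ± 194 normalized counts (SD, n = 3; log2 fold change 0.27, SE 0.05, limma adjusted p = 0.0016). Ptges3, the gene of the p23 co-chaperone of AHR and steroid receptors, fell from 9948 ± 288 to 8585 ± 231 (-0.21, SE 0.04, limma adjusted p = 0.00152). Ahrr, a repressor that AHR induces, was at 47.9 ± 15.4 in control and 34.0 ± 19.3 in ferroptotic medium (limma adjusted p = 0.298). Nqo1, a quinone reductase gene that AHR and NRF2 induce, was at 71.9 ± 15.3 and 63.2 ± 10.8 (limma adjusted p = 0.583). The AHR target genes Cyp1a1, Cyp1b1 and Aldh3a1 were not analysed here, and Cyp1a2 had 3 reads in all.

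Nr3c1 (ENSMUSG00000024431), the gene of the glucocorticoid receptor, did not separate the media. The control libraries had 1249, 1842 and 2005 Nr3c1 normalized counts, against 1627, 1596 and 2148 with ferroptotic medium. The first control library was the lowest of the 6, and the groups overlapped. The log2 fold change was 0.09 (SE 0.22, 95% interval -0.48 to 0.66, limma adjusted p = 0.784), and it was -0.12 without that control library and -0.05 without the third ferroptotic-medium library.

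Tsc22d3 (ENSMUSG00000031431) encodes GILZ, a leucine zipper protein that glucocorticoids induce and that restrains NF-kB and AP-1. Its control libraries gave 285, 246 and 262 normalized counts, and its ferroptotic-medium libraries 598, 704 and 564. Every ferroptotic-medium library was above every control library. The mean went from 265 ± 19.4 to 622 ± 73.2 (SD, n = 3), a log2 fold change of 1.23 (SE 0.11, 95% interval 0.97 to 1.48, limma adjusted p = 3.67e-05). On the authors' FPKM scale, which scales reads by gene length and library size, it went from 1.26 ± 0.0947 to 2.92 ± 0.369, and the authors' deposited table gives a false discovery rate of 3.32e-22. Tsc22d3 rose while the mRNA of the receptor best known to induce it did not pass the test. Whether that receptor took part in the rise was not tested.

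Of 19 listed targets of the glucocorticoid receptor 15 were tested, and their median log2 fold change was 0.72. Of the 15, 13 (86.7%, beside 19.7% of all tested genes) were called higher and 2 (13.3%, beside 22.8%) lower. Several of these genes are known to answer inflammatory or stress signals as well. Ddit4, an inhibitor of mTORC1, rose from 234 ± 23.5 to 1606 ± 43.7 normalized counts (2.78, SE 0.09, limma adjusted p = 9.25e-08). Zfp36, whose product degrades cytokine mRNAs, rose from 5221 ± 86.6 to 12515 ± 469 (1.26, SE 0.04, limma adjusted p = 6.3e-08). The transcription factor genes Cebpb and Cebpd rose by log2 fold changes of 1.32 (SE 0.05) and 1.32 (SE 0.05), close to that of Tsc22d3. The kinase gene Sgk1 rose from 316 ± 35.5 to 751 ± 68.3 (1.25, SE 0.11), whereas the clock gene Per1 (0.34, SE 0.07) and the factor gene Klf9 (0.27, SE 0.06) rose less. The 2 genes that fell were Fkbp5, which encodes a co-chaperone that dampens the receptor and is among its most used target genes, from 6043 ± 164 to 5176 ± 121 (-0.22, SE 0.04, limma adjusted p = 0.00146), and Anxa1, the gene of annexin A1, from 5445 ± 120 to 3785 ± 134 (-0.53, SE 0.04, limma adjusted p = 1.41e-05). Genes with the same known inducer thus stood on both sides of 0.

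**Figure D3:**
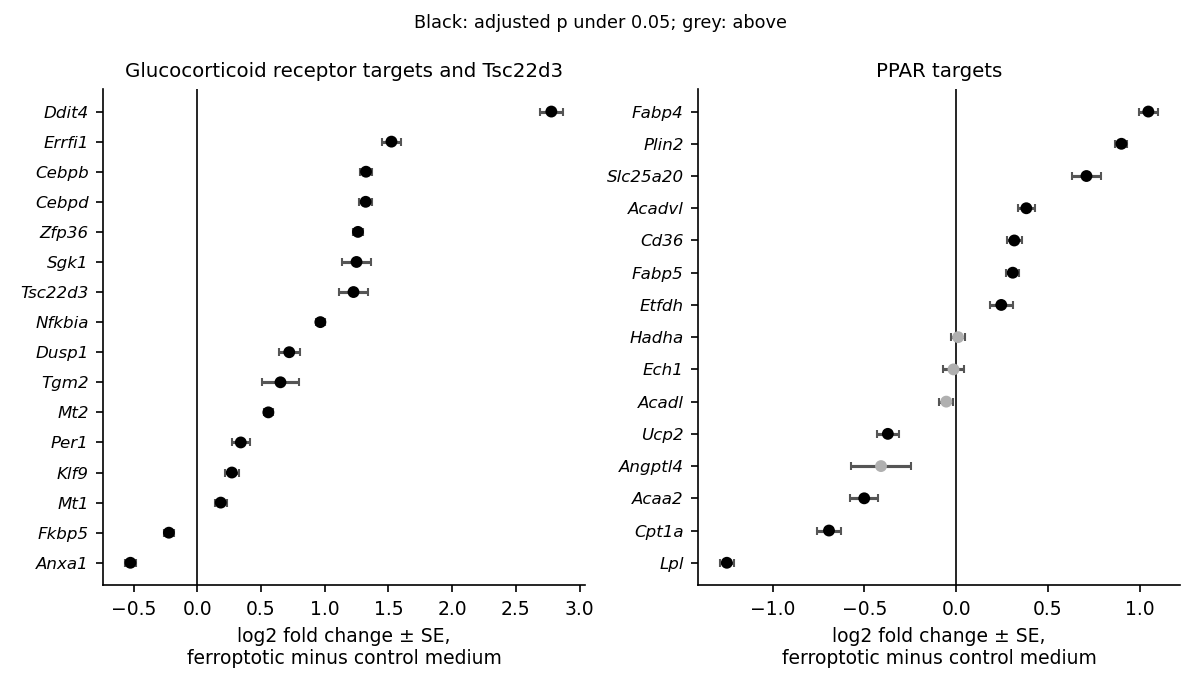
Log2 fold change with SE for Tsc22d3 and the 15 tested targets of the glucocorticoid receptor (left) and for 15 of the 16 tested PPAR targets (right), ferroptotic minus control medium, black where the limma adjusted p was below 0.05. On the left 13 targets and Tsc22d3 lie above 0 and Fkbp5 and Anxa1 below, and on the right 7 of the genes shown are called above 0 and 4 below.

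Cytosolic chaperones hold the glucocorticoid receptor and AHR ready to bind. Of 12 chaperone and co-chaperone genes tested, 7 fell and 1 rose (58.3% and 8.33%, beside 22.8% and 19.7% of all tested genes). The median log2 fold change of the 12 was -0.17. Hspa8, the constitutive HSP70 gene, fell from 67222 ± 1257 to 47087 ± 1016 normalized counts (-0.51, SE 0.03, limma adjusted p = 1.04e-06). Stip1, whose product hands clients from HSP70 to HSP90, fell by 0.52 on the log2 scale (SE 0.04), Dnaja1, an HSP40 gene, by 0.42 (SE 0.05) and Fkbp4, the co-chaperone gene that favours receptor transport, by 0.31 (SE 0.03). Fkbp5 and Ptges3 have been given above, and Bag1 fell by 0.12 (SE 0.03, limma adjusted p = 0.0157), a call lost without the second control library (limma adjusted p = 0.0627) or the third (0.0513), with quantile normalization (0.0902) and with limma without trend and robust (0.0591). Hsp90aa1, the inducible HSP90 gene, rose from 28362 ± 1109 to 31106 ± 1281 (0.13, SE 0.04, limma adjusted p = 0.0257), a call that was lost on leaving out the second control library (limma adjusted p = 0.0878), the second ferroptotic-medium library (0.066) or the third (0.0851).

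Ppard (ENSMUSG00000002250), the gene of the fatty acid receptor PPAR delta, had 1676, 1893 and 844 normalized counts in control medium and 1928, 1776 and 1908 with ferroptotic medium. The third control library stood far below the other 5, which overlapped. The log2 fold change was 0.43 (SE 0.34, 95% interval -0.46 to 1.32, limma adjusted p = 0.381) and 0.07 without the third control library (limma adjusted p = 0.523).

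Of 18 listed PPAR targets 16 were tested, and their median log2 fold change was 0.13. Of the 16, 8 were called higher and 4 lower (50% and 25%, beside 19.7% and 22.8% of all tested genes). Plin2, which coats lipid droplets, rose from 5370 ± 90.1 to 10020 ± 146 normalized counts (0.90, SE 0.03, limma adjusted p = 1.57e-07). Fabp4, a fatty acid carrier gene, rose from 1944 ± 64.1 to 4017 ± 195 (1.05, SE 0.05, limma adjusted p = 8.59e-07). The 4 that fell were Lpl, the lipoprotein lipase gene, from 22596 ± 233 to 9511 ± 409 (-1.25, SE 0.04, limma adjusted p = 5.74e-08), Cpt1a, which admits long-chain fatty acids to mitochondria, from 1757 ± 68.5 to 1087 ± 58.4 (-0.69, SE 0.06), Acaa2, of mitochondrial fatty acid oxidation (-0.50, SE 0.08), and the mitochondrial carrier gene Ucp2 (-0.37, SE 0.06). Of the other listed genes of mitochondrial fatty acid oxidation, Slc25a20 (0.71), Acadvl (0.38) and Etfdh (0.25) were called higher. Acadl, Hadha and Ech1 did not pass the test. Genes of fatty acid use thus stood on both sides of 0.

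Rxrb (ENSMUSG00000039656), the gene of the abundant RXR of these cells, had 3259, 3243 and 3524 normalized counts in control medium and 3553, 3094 and 3323 with ferroptotic medium. The groups overlapped, and the log2 fold change was -0.01 (SE 0.06, 95% interval -0.15 to 0.13, limma adjusted p = 0.917), with a sign that turned in 4 of 13 alternative analyses.

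Rxra (ENSMUSG00000015846), the gene of the RXR that macrophages are better known for, was close to the detection limit, with 87 reads in all. It had 7.83, 12.6 and 7.83 normalized counts in control medium (8, 15 and 8 reads) and 22.3, 22.5 and 14.4 with ferroptotic medium (21, 22 and 13 reads). The groups did not overlap, although the highest control library and the lowest ferroptotic-medium library were 2 reads apart in the other direction before scaling for library size. The log2 fold change was 1.00 (SE 0.42, 95% interval 0.03 to 1.97, limma adjusted p = 0.0929), and the difference passed only when the spread of genes was pooled without regard to their level (limma adjusted p = 0.0314). Per kilobase, Rxrb exceeded Rxra 572-fold, 353-fold and 619-fold with control medium and 219-fold, 189-fold and 317-fold with ferroptotic medium, ratios that rest on the few Rxra reads.

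Rara (ENSMUSG00000037992), the gene of the broadly expressed retinoic acid receptor, had 1354, 1319 and 1339 normalized counts in control medium and 994, 1111 and 1192 with ferroptotic medium. All 3 ferroptotic-medium libraries were below all 3 control libraries, which lay close together. The mean went from 1337 ± 17.9 to 1099 ± 99.3 (SD, n = 3), a log2 fold change of -0.29 (SE 0.08, 95% interval -0.46 to -0.11, limma adjusted p = 0.0142). Over the alternative analyses the adjusted p ranged from 0.00766 to 0.0448. The authors' deposited table gives a false discovery rate of 0.00147.

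Of the other retinoic acid receptors, Rarb, itself a known target of RAR proteins, fell further. It had 474, 464 and 486 normalized counts in control medium and 130, 153 and 171 with ferroptotic medium (-1.65, SE 0.12, limma adjusted p = 1.07e-05), and the groups lay far apart. Rarb shares 34.1% of its exon bases with the antisense gene Top2b, so reads of the pair may be mixed if counting ignored strand. Top2b had 6402, 6180 and 6178 normalized counts in control medium and 5761, 6473 and 6572 with ferroptotic medium, which overlapped. Rarg, the gamma receptor gene, was at 325 ± 69.9 in control and 422 ± 64.0 in ferroptotic medium (0.39, SE 0.18, limma adjusted p = 0.125). Per kilobase, Rara exceeded Rarb 3.45-fold, 3.43-fold and 3.33-fold with control medium and 9.24-fold, 8.73-fold and 8.43-fold with ferroptotic medium.

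Of 14 genes of retinoic acid handling and RAR targets, only 4 reached the minimum for testing, among them Rarb. Dhrs3, which turns retinal back into retinol, rose from 1820 ± 94.4 to 3128 ± 132 normalized counts (0.78, SE 0.06, limma adjusted p = 8.26e-06). Tgm2, the transglutaminase gene, rose from 91.4 ± 4.38 to 144 ± 12.3 (0.65, SE 0.15, limma adjusted p = 0.00634), and Rdh10, which makes retinal from retinol, did not pass (-0.12, SE 0.12, limma adjusted p = 0.475). The known RAR targets therefore lay on both sides, Rarb lower and Dhrs3 and Tgm2 higher.

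Vdr (ENSMUSG00000022479), the vitamin D receptor gene, had 11.8, 5.89 and 0 normalized counts in control medium and 19.1, 9.21 and 17.7 with ferroptotic medium, from 62 reads in all. The groups overlapped. Its log2 fold change of 1.82 (SE 0.94, 95% interval -0.33 to 3.97, limma adjusted p = 0.158) was 0.74 without the third control library, where no read was seen. With 10 in place of 1 added before the log it was 0.72.

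All 3 tested genes of vitamin D metabolism and VDR targets, of 7 listed, were called higher (100%, beside 19.7% of all tested genes). Cyp24a1, Cyp2r1, Trpv6 and S100g of the same list were not analysed here. Spp1, the osteopontin gene and a known VDR target, rose from 781675 ± 21200 to 1125613 ± 11785 normalized counts (0.53, SE 0.02, limma adjusted p = 3.1e-07). Under quantile normalization its difference vanished, since that method gives the same value to the top gene of every library. Cyp27a1, a sterol 27-hydroxylase gene that can begin vitamin D activation, rose from 1053 ± 25.5 to 1350 ± 62.7 (0.36, SE 0.06, limma adjusted p = 0.00158). Cyp27b1, which makes the active hormone, rose from 28.4 ± 11.1 to 61.0 ± 15.3 (1.11, SE 0.32, limma adjusted p = 0.0227), a call lost without the first control library (limma adjusted p = 0.067), the third (0.0676) or the first ferroptotic-medium library (0.0818).

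Among 42 other genes of the nuclear receptor superfamily 20 were tested, and their median log2 fold change was 0.11. Of the 20, 5 were called higher and 3 lower (25% and 15%, beside 19.7% and 22.8% of all tested genes). The orphan receptor genes Nr4a1, from 810 ± 58.6 to 1748 ± 91.8 normalized counts (1.11, SE 0.07, limma adjusted p = 5.27e-06), and Nr4a3, from 14.7 ± 3.44 to 69.4 ± 17.3 (2.16, SE 0.31, limma adjusted p = 0.000518), rose. The haem-binding clock repressors moved in opposite directions, Nr1d1 higher (0.41, SE 0.09, limma adjusted p = 0.00615) and Nr1d2 lower (-0.94, SE 0.13, limma adjusted p = 0.000542). Nr0b2, a partner that lacks a DNA-binding domain and represses other receptors, fell (-1.18, SE 0.18, limma adjusted p = 0.000925). Esrra (0.18, SE 0.05, limma adjusted p = 0.0171) and Nr6a1 (0.31, SE 0.08, limma adjusted p = 0.0178) rose, and each lost its call when single libraries were left out. For Esrra this was the third control library (limma adjusted p = 0.0659), and for Nr6a1 the first control library (0.0521) or the third ferroptotic-medium library (0.0578). The eighth called gene was Rarb.

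Coregulators carry the activity of the receptors on DNA. Of 18 tested, 1 rose and 6 fell (5.56% and 33.3%, beside 19.7% and 22.8% of all tested genes). The median log2 fold change of the 18 was -0.14. Ppargc1b, a coactivator of PPAR and oestrogen-related receptors, fell from 780 ± 60.4 to 414 ± 6.11 normalized counts (-0.91, SE 0.08, limma adjusted p = 4.06e-05). Ppargc1a was below the minimum for testing and was called higher when a minimum of 1 normalized count, or none, admitted it. Ncor1, a corepressor gene, rose from 11419 ± 254 to 13639 ± 255 (0.26, SE 0.03, limma adjusted p = 0.000216), whereas 3 genes of the complex it forms fell: Tbl1xr1 (-0.38, SE 0.06), Hdac3 (-0.26, SE 0.04) and Gps2 (-0.36, SE 0.08). Tbl1x, of the same complex, did not pass (0.06, SE 0.03, limma adjusted p = 0.228). The coactivator gene Ncoa3 (-0.24, SE 0.04) and the methyltransferase gene Carm1 (-0.28, SE 0.05) fell as well.

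**Figure D4:**
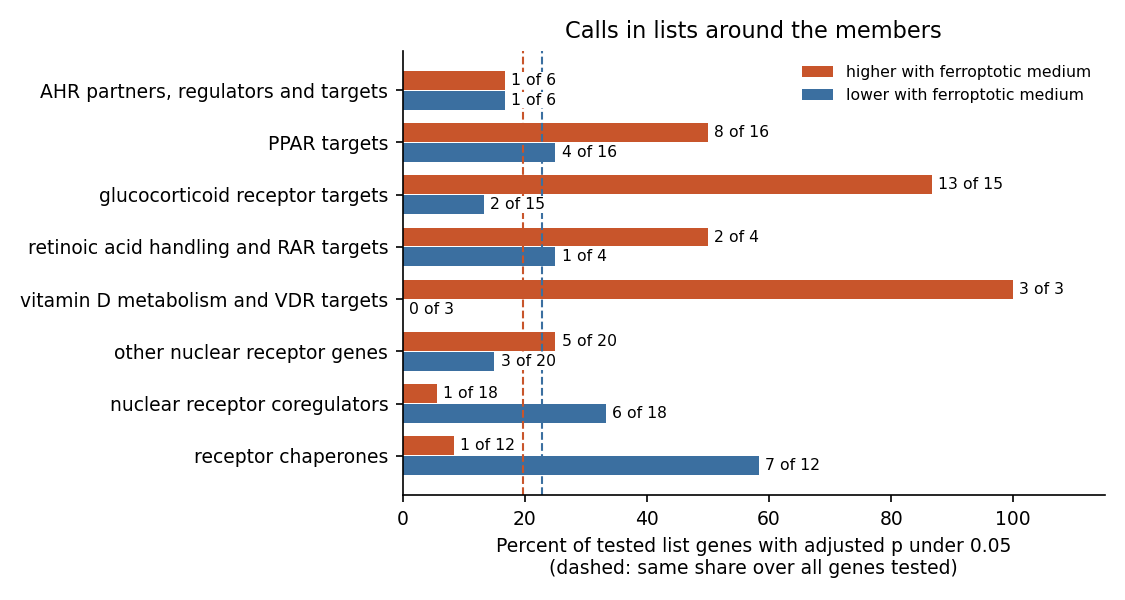
Percent of the tested genes of each of the 8 lists around the members that were called higher or lower with ferroptotic medium (limma adjusted p below 0.05), with counts beside the bars; dashed lines give the same percent over all tested genes, 19.7 higher and 22.8 lower. The bar for glucocorticoid receptor targets called higher reaches 86.7%, and the chaperone bar for genes called lower reaches 58.3%.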

How the data were processed

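Total RNA from 6 microglia samples was sequenced on an Illumina NovaSeq after an mRNA library kit with PCR, per the labels' protocols. The tools named per the submitters' processing notes are HISAT2 2.1.0 and fastp 0.17.1 for reads, and R 3.4.3 with DESeq2 1.18.1. The sources used here do not name the build, the annotation, the counter or its use of strand. The authors deposited a log2 value per gene and library, with their own p-value and false discovery rate, and a shorter table with FPKM. Undoing the log2(value + 1) step gave normalized counts, and dividing these by the smallest step of each library gave whole numbers in 100% of cases (tolerance 0.01), taken as reads. Among low values 3 reads were more frequent than 2 (6101 against 5169), so the reads may be rounded estimates. Read numbers and depths carry that doubt.

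The test was limma 3.58.1 in R 4.3.3 (trend and robust, two-sided, medium as the one term) on the deposited log2 values. All 15597 genes that reached 10 normalized counts in 3 or more libraries entered it. It was also run on simulated counts in which every gene had the same spread beyond counting error. Genes here differ in that spread, so the simulation does not show how the test performs on these data. edgeR was planned for raw counts and not run, since the deposited unit is log2. Permutation tests used scipy 1.17.1, and figures matplotlib 3.10.9. Exon lengths and overlaps came from GENCODE M21 (26051 of 26096 gene IDs found), upstream sequences from RefSeq. Libraries of a group were not copies of each other (chi-square per degree of freedom 16.3 to 22.8). Alternatives were other minimum levels, another added constant, quantile normalization, limma-voom, limma without trend and robust, a replicate block and leaving out each library.

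The members and the 8 lists (137 genes, 5 in more than 1 list) were chosen with earlier results of these data known, so no count over them is independent support. Named genes were the 10 members, up to 4 tested genes with the smallest p-values per list and every called gene where 5 or fewer were called in a direction. Other list genes, among them Sgk1, Per1, Klf9, Cyp1a2, Top2b, Tbl1x, Ncoa1, Ncoa4 and some of the lower chaperones and coregulators, were named after their values were seen. Marker lists (microglia, macrophages, astrocytes, oligodendrocytes, neurons, endothelial cells, fibroblasts and neutrophils) described cell types. The endothelial sum ran from 2100 to 2347 and from 2248 to 2435 normalized counts, and the neutrophil sum was 0 and 0 to 7.16. Of the called PPAR targets, 1 is counted but not reported here by name or in a figure.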

Additional observations from a re-analysis of the deposited data

How the results depend on the processing

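The 20 counts of called genes (members, all genes and 8 lists, in each direction) were recomputed under 13 alternatives, and 252 of the 260 values stayed within 1.5 times of the main one. Members called higher numbered 2 with limma without trend and robust, which adds Rxra. Coregulators called higher numbered 2 with a minimum of 1 normalized count or with no minimum, which admit Ppargc1a. With quantile normalization they numbered 3, which adds Ncoa1 and Ncoa4. Chaperones called higher, Hsp90aa1 alone in the main analysis, numbered 0 with limma without trend and robust, and 0 to 1 when single libraries were left out. Tsc22d3 was called higher and Rara lower in 13 of 13 alternatives. Replicate numbers are shared by the groups, but same-numbered libraries did not deviate together (correlations -0.039 to 0.0086), and no library correlated best with its own number. With a replicate block 2914 genes were called higher and 3312 lower, and of the listed genes 1 changed its call, Rarg (limma adjusted p = 0.0421 against 0.125). The values of Ahr, Vdr and Rxra rest on 13, 62 and 87 reads, so counting error is widest there.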
